A study of Mus musculus with 8 samples.

Results

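The EGF receptor ligands and the ERBB receptors were followed through the pancreas of lean and obese mice. The genes were chosen by name as members of the family, with earlier results of these data known, and all 10 were found among the 15047 genes with a deposited value. They are 6 ligands of the EGF receptor (Areg, Ereg, Hbegf, Tgfa, Btc and Egf), the neuregulin Nrg1, and 3 receptors (Egfr, Erbb2 and Erbb3).

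Pancreatic RNA of 8 male mice in 3 groups was sequenced. The LFD group held 3 C57BL/6 WT mice on a low-fat diet for 10 weeks from an age of 4 weeks. The HFD group held 3 C57BL/6 WT mice of the same age on a diet with 60% of calories from fat for the same time. The ob/ob group held 2 leptin-deficient C57BL/6J; ob/ob mice, entered at the same age, on standard chow, so that it differs from LFD in genotype and in diet. The study describes the sequenced pancreas of the lean and obese mice as carrying orthotopic mT organoids, which the labels do not mention. These were grown from tumors of KPC mice, in which Pdx1-Cre, active in the pancreatic epithelium, switches on mutant alleles that include Trp53. Each sample is then host pancreas together with an unknown share of transplanted epithelium, and the sources used here give neither that share nor the day of sampling.

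The ERBB receptors are tyrosine kinases of the cell surface that work in pairs. EGFR binds EGF, TGFA, amphiregulin (Areg), epiregulin (Ereg), betacellulin (Btc) and HB-EGF (Hbegf), ERBB3 binds neuregulin 1 (Nrg1) but has hardly any kinase activity of its own, and ERBB2 binds no known ligand and serves as the partner of the others. The ligands are made as membrane proteins and are released by proteases, and the signal runs on to the RAS and PI3K pathways. In the pancreas, EGFR is known to be needed for the change of acinar cells into duct-like cells and for tumor formation.

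The values are rlog values, log2 values corrected for library size, in which 1 unit is a 2-fold change and in which differences of weakly expressed genes are drawn towards 0. The median over all genes was between 7.09 and 7.25 in the 8 mice. All 18 acinar marker genes were measured and their mean rlog value was between 17.62 and 17.99 in LFD, so the labelled tissue had its defining markers. In HFD it was 17.86, 15.82 and 13.86 in replicates 1, 2 and 3, and in ob/ob 17.19 and 14.22 in replicates 1 and 2. HFD replicate 1 therefore sat with the LFD mice, and HFD replicate 3 and ob/ob replicate 2 stood furthest from them.

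Areg, Ereg and Btc are neighbours on mouse chromosome 5. In Gencode M21 on GRCm38, Ereg spans chr5:91074622-91093646 and Areg chr5:91139599-91148432 on the plus strand, and Btc chr5:91357261-91402994 on the minus strand. Egf lies on the minus strand at chr3:129677565-129755316. Of the others, Tgfa lies at chr6:86195223-86275719, Nrg1 at chr8:31814551-32884029, Erbb3 at chr10:128567523-128589652, and Egfr and Erbb2 share a chromosome at chr11:16752203-16918158 and chr11:98412470-98437716. The 250 bases before the start site are shown for Areg, Btc and Egf because these are neighbouring ligands that were higher in obese mice and the ligand that was lower (RefSeq promoters on GRCm38.p6). The windows are chr5:91139349-91139598 on the plus strand, chr5:91402995-91403244 on the minus strand and chr3:129755323-129755572 on the minus strand, each written 5′ to 3′. Capitals mark a CRE (TGACGTCA, the site named after cAMP response) and a TATA box (TATAAA).
Areg: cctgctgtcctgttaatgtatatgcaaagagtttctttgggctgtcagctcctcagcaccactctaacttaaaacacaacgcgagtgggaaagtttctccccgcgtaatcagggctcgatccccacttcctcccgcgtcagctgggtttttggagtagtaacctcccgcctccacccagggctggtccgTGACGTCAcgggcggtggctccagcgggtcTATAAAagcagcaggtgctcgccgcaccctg
Btc: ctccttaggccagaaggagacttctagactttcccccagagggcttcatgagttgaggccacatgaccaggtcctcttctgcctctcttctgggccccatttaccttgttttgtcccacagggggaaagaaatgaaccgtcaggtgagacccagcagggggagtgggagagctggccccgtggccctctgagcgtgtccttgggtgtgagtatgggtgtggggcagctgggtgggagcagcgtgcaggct
Egf: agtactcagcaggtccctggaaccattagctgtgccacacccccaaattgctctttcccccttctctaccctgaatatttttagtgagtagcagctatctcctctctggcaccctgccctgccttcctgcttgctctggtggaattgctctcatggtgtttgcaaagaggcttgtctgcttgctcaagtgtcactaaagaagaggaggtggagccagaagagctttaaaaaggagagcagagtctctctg

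The Areg window held a CRE whose first base is at -61 from the start site and a TATA box at -31. Neither motif was found in the windows of Btc and Egf. Promoter windows were given for 6 of the 10 genes (Areg, Btc, Egf, Tgfa, Egfr and Erbb2), 7 windows in all since Egf has a further start site, and each was searched on both strands for these motifs, for the AP-1 site (TGANTCA) and for the GC box (GGGCGG), from 250 bases before to 50 after the start. The matches found did not overlap each other. The CRE and the TATA box were found only in Areg, the GC box in Areg, Tgfa and Egfr, and the AP-1 site in none. Over all 32851 mouse promoters of this length the CRE was present in 1.55%, the AP-1 site in 6.75%, the TATA box in 12.4% and the GC box in 32.7%. These matches describe the letters of the windows and say nothing of a factor binding there.

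Egf was the most abundant ligand transcript in lean pancreas. As a level (2 to the power of the rlog value, per kb of the mean protein-coding transcript), Egf stood at 430 ± 13.9 in LFD (SD, n = 3) and Egfr, the common receptor, at 125 ± 6.97. Tgfa at 69.6 ± 13.5 and Erbb3 at 64.5 ± 6.82 overlapped, and so did Hbegf at 33.5 ± 5.92 and Btc at 26.8 ± 9.69. Erbb2 followed with 18.3 ± 3.17, Areg with 9.97 ± 1.01, Nrg1 with 4.30 ± 0.757 and Ereg with 2.05 ± 0.444. With the longest coding transcript in place of the mean, Egfr was below Erbb3 (55.6 against 64.5) and Nrg1 below Ereg (1.85 against 2.05), and Tgfa, at 37.9, no longer overlapped with Erbb3, so these orders depend on the length used. The levels rest on rlog values, which are shrunken for the weakly expressed genes.

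Amphiregulin, a ligand of injured and regenerating epithelium, showed the largest difference between HFD and LFD in the family. Areg had rlog values of 3.42, 3.65 and 3.70 in LFD, 4.43, 6.69 and 7.03 in HFD, and 4.74 and 4.96 in ob/ob. No obese mouse was as low as any of the LFD mice, and HFD replicates 2 and 3 were far above the other 3 obese mice. The HFD minus LFD difference was 2.46 (SE 0.60, 95% interval 1.08 to 3.83), place 17 from the highest of 15047 genes, and ob/ob minus LFD was 1.26 (SE 0.68, interval -0.28 to 2.80). Neither passed the test over all genes (limma, Benjamini-Hochberg adjusted p = 0.179 and 0.326).

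**Figure D1:**
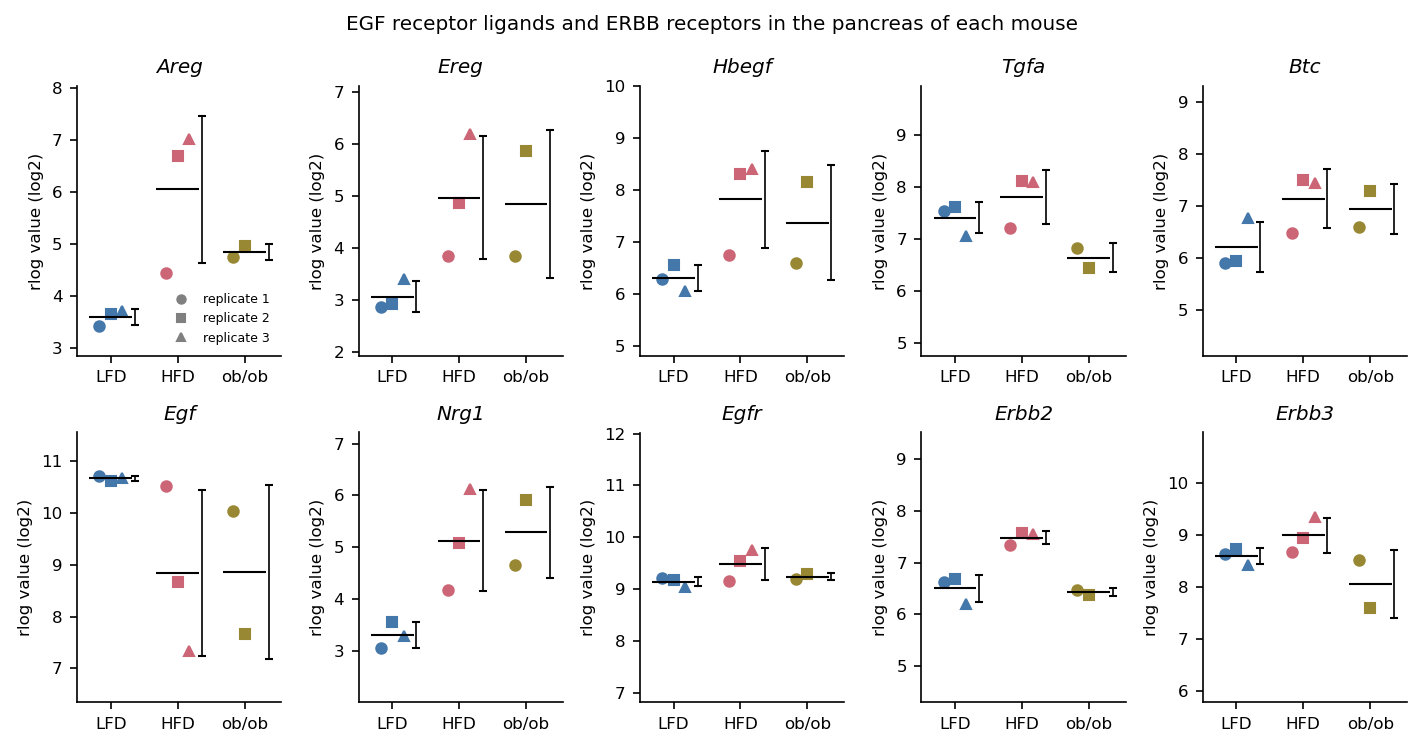
Rlog value (log2) of each of the 10 genes in each mouse (y axis; every panel spans the same number of log2 units) by group (x axis). Marker shapes give the replicate, horizontal lines the group mean and bars 1 SD to each side of it; Areg, Ereg, Hbegf and Nrg1 were higher in all 5 obese mice than in the 3 LFD mice and Egf was lower.

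Epiregulin, the weakest of the 6 EGF receptor ligands in lean pancreas, was higher in both obese groups. Ereg was at 2.86, 2.91 and 3.40 in LFD, 3.85, 4.86 and 6.20 in HFD, and 3.84 and 5.86 in ob/ob. The 5 obese mice were again above the LFD mice, with HFD replicate 3 and ob/ob replicate 2 at the top. HFD minus LFD was 1.91 (SE 0.66) and ob/ob minus LFD 1.79 (SE 0.74), with limma adjusted p-values of 0.204 and 0.253. Betacellulin, the third neighbour, was at 5.91, 5.95 and 6.77 in LFD, 6.49, 7.50 and 7.44 in HFD, and 6.60 and 7.29 in ob/ob. For Btc the groups overlapped, since LFD replicate 3 was above replicate 1 of both obese groups. Its differences from LFD were 0.94 (SE 0.37) in HFD and 0.74 (SE 0.41) in ob/ob.

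Hbegf, whose product also binds the ERBB4 receptor, split the obese mice. It was at 6.29, 6.56 and 6.05 in LFD, 6.74, 8.31 and 8.41 in HFD, and 6.59 and 8.15 in ob/ob. HFD replicate 1 and ob/ob replicate 1 lay just above the LFD mice, while the other 3 obese mice were more than 1 unit higher. HFD minus LFD was 1.52 (SE 0.52) and ob/ob minus LFD 1.07 (SE 0.58), with limma adjusted p-values of 0.202 and 0.328.

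Egf itself ran the other way. It was at 10.71, 10.61 and 10.67 in LFD, 10.52, 8.66 and 7.34 in HFD, and 10.04 and 7.67 in ob/ob. The LFD mice agreed within 0.093 units, and all obese mice were below them, HFD replicate 1 only slightly. The difference was -1.83 in HFD (SE 0.79, interval -3.63 to -0.018) and -1.81 in ob/ob (SE 0.89, interval -3.83 to 0.21), with limma adjusted p-values of 0.25 and 0.294. Fewer cells of a type and less RNA per cell cannot be told apart in these bulk samples. The acinar markers were lowest in the same mice, since the 4 mice with the lowest Egf (HFD replicate 3, ob/ob replicate 2, HFD replicate 2 and ob/ob replicate 1) had the lowest acinar mean in the same order.

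Tgfa, the ligand that pancreatic tumor cells are known to make for themselves, separated the 2 kinds of obese mice instead. It was at 7.54, 7.61 and 7.06 in LFD, 7.20, 8.11 and 8.10 in HFD, and 6.83 and 6.44 in ob/ob. Both ob/ob mice were below all 6 others, and HFD overlapped with LFD. The ob/ob minus HFD difference was -1.17 (SE 0.33, interval -1.93 to -0.41), ob/ob minus LFD was -0.77 (SE 0.33) and HFD minus LFD 0.40 (SE 0.30). The limma adjusted p-values were 1.0, 0.262 and 0.457.

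Nrg1, which acts through ERBB3 and ERBB4 and not through EGFR, had the largest difference of the family in ob/ob. It was at 3.07, 3.57 and 3.29 in LFD, 4.18, 5.08 and 6.13 in HFD, and 4.67 and 5.91 in ob/ob. Each of the 5 obese mice exceeded every LFD mouse, HFD replicate 1 included. HFD minus LFD was 1.82 (SE 0.52, interval 0.64 to 3.0) and ob/ob minus LFD 1.98 (SE 0.58, interval 0.66 to 3.30), and ob/ob minus HFD was 0.16 with an interval from -1.16 to 1.48. None passed in limma (adjusted p = 0.18, 0.2 and 1.0).

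Egfr varied least of the 10 genes. It was at 9.21, 9.18 and 9.05 in LFD, 9.15, 9.55 and 9.75 in HFD, and 9.20 and 9.29 in ob/ob. Only HFD replicates 2 and 3 were clearly above the LFD mice, and the difference from LFD was 0.34 (SE 0.18) in HFD and 0.10 (SE 0.20) in ob/ob. Its whole range over the 8 mice was 0.70 units, against 3.61 for Areg and 3.36 for Egf.

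Erbb2 was the receptor that set HFD apart. It was at 6.62, 6.69 and 6.20 in LFD, 7.33, 7.56 and 7.55 in HFD, and 6.48 and 6.37 in ob/ob. All 3 HFD mice, replicate 1 included, were above all 5 other mice, and ob/ob lay within the LFD range. HFD minus LFD was 0.97 (SE 0.21, interval 0.49 to 1.46; limma adjusted p = 0.175), ob/ob minus LFD was -0.08 (SE 0.24, interval -0.62 to 0.46) and ob/ob minus HFD -1.05 (SE 0.24, interval -1.60 to -0.51; limma adjusted p = 0.883). Erbb3 was at 8.64, 8.73 and 8.42 in LFD, 8.68, 8.94 and 9.35 in HFD, and 8.52 and 7.59 in ob/ob. HFD and ob/ob did not overlap, although ob/ob replicate 1 and HFD replicate 1 differed little from the LFD mice. The ob/ob minus HFD difference was -0.94 (SE 0.30, interval -1.62 to -0.25; limma adjusted p = 1.0), with 0.40 (SE 0.27) for HFD minus LFD and -0.54 (SE 0.30) for ob/ob minus LFD. The comparisons with LFD share the same 3 control mice.

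**Figure D2:**
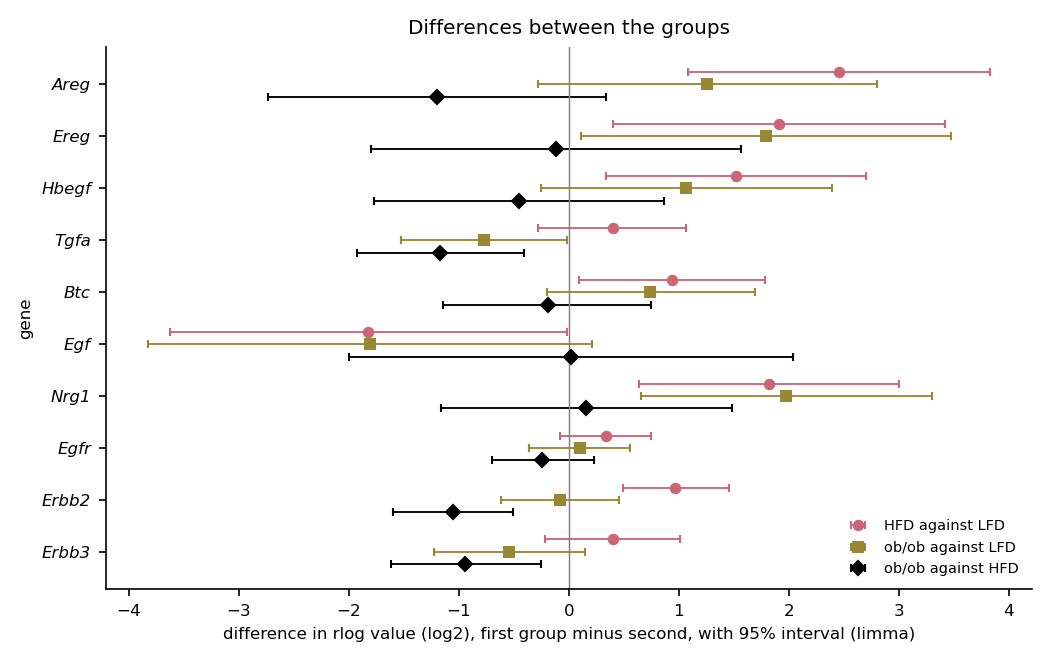
Difference in rlog value (x axis, log2, first group minus second) of each gene (y axis) for HFD against LFD (circles), ob/ob against LFD (squares) and ob/ob against HFD (diamonds), with 95% intervals from limma. Areg, Ereg, Hbegf, Btc and Nrg1 lay above 0 against LFD in both obese groups and Egf below 0, while Tgfa, Erbb2 and Erbb3 had ob/ob against HFD intervals wholly below 0.

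No gene of the whole table passed an adjusted p of 0.05 in limma in any of the 4 comparisons (0.0% of 15047 genes each), and none of the 10 genes did. The paper, which tested counts with DESeq2, does report genes with an adjusted p under 0.05 between these groups. The absence of passing genes here is therefore that of limma on rlog values. The smallest adjusted p of any gene was 0.0598, for the mean of the obese groups against LFD, and it was 0.0864 and 0.135 for HFD and ob/ob each against LFD and 0.883 between the obese groups. At an unadjusted p under 0.05, 7 of the 10 genes passed for HFD against LFD (Areg, Ereg, Hbegf, Btc, Nrg1 and Erbb2 higher, Egf lower), where 19.8% of all genes did (11.5% higher and 8.35% lower). For ob/ob against LFD 3 of 10 passed (Ereg and Nrg1 higher, Tgfa lower), beside 18.8% of all genes (11.6% higher and 7.18% lower). For ob/ob against HFD 3 of 10 passed, all lower (Tgfa, Erbb2 and Erbb3), beside 3.91% of all genes (2.28% higher and 1.63% lower). For the mean of both obese groups against LFD 7 of 10 passed, the same 7 as in HFD, beside 25.4% of all genes (14.5% higher and 10.9% lower).

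Between HFD and LFD, 6 of the 10 genes did not overlap (25.2% of all genes), 5 of them wholly higher (12.9%) and 1 wholly lower (12.3%). Between ob/ob and LFD, 4 were wholly higher and 2 wholly lower, beside 24.1% and 21.8% of all genes (45.9% in all). Between ob/ob and HFD, 3 were wholly lower and none wholly higher, beside 5.42% and 7.92% of all genes (13.3% in all). With all 5 obese mice against the 3 LFD mice, Areg, Ereg, Hbegf and Nrg1 were wholly higher (9.4% of all genes) and Egf wholly lower (9.05%). Each of these 5 genes reached p = 0.0357 in a two-sided exact permutation test, the smallest p that 5 mice against 3 allow, as did 18.4% of all genes, and the p adjusted over all genes was 0.194. The lowest obese mouse was only just above the highest LFD mouse for Hbegf (6.59 against 6.56), and after centring each mouse on its median or after quantile normalization its exact permutation p was 0.0714. The exact test of the other 5 genes gave p-values between 0.107 for Btc and 0.893 for Erbb3.

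HFD replicate 1 decided what passed. Without it, 2812 genes passed an adjusted p of 0.05 for HFD against LFD (18.7% of all genes), and 7 of the 10 genes were among them. Areg rose by 3.27 in HFD replicates 2 and 3 (limma adjusted p = 0.00806), Ereg by 2.47 (0.032), Hbegf by 2.06 (0.0199), Btc by 1.26 (0.0376), Nrg1 by 2.29 (0.0201) and Erbb2 by 1.05 (0.0251). Egf fell by 2.67 (limma adjusted p = 0.0274). Tgfa, Egfr and Erbb3 did not pass, with adjusted p-values of 0.0769, 0.0588 and 0.198. For the mean of the obese groups against LFD, 3326 genes (22.1%) and 6 of the 10 genes passed without this mouse, Erbb2 being the one that no longer did. The labels give no reason to set this mouse aside, and the results with all 8 mice are those of the design. Leaving out ob/ob replicate 1 instead gave 476 genes for the obese groups against LFD (3.16%), none of them among the 10.

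Among the transcripts of the 6 EGF receptor ligands, the mix differed more than the sum in HFD replicates 2 and 3. In both ob/ob mice the sum was well below that of LFD. Egf made up 76.1%, 73.1% and 76.5% of the summed level per kb in the LFD mice. In HFD its share was 71.2%, 21.1% and 8.92%, and in ob/ob 65.7% and 17.9%. HFD replicate 1 and ob/ob replicate 1 thus kept Egf as the main ligand transcript, and in the other 3 obese mice it no longer was. Areg held 1.51% to 1.90% in LFD, 3.25%, 16.8% and 22.3% in HFD replicates 1, 2 and 3, and 5.18% and 8.46% in ob/ob replicates 1 and 2. Hbegf held 4.92% to 6.97% in LFD, 8.23%, 26.3% and 29.7% in HFD replicates 1, 2 and 3, and 9.55% and 39.4% in ob/ob replicates 1 and 2. The summed level of all 6 was 566 to 583 in LFD, 483 to 546 in HFD and 303 to 425 in ob/ob. Without Egf the sum was 133 to 153 in LFD, 157, 401 and 440 in HFD, and 146 and 249 in ob/ob. With the longest transcript the Egf share was 75.6% ± 1.57 in LFD (SD, n = 3) and between 8.06% and 70.3% in HFD, so the Egf share depended little on the length used. The Tgfa share depended on it more, with 23.0% in HFD replicate 3 and 11.6% in ob/ob replicate 2 by the mean length and 14.3% and 6.97% by the longest.

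**Figure D3:**
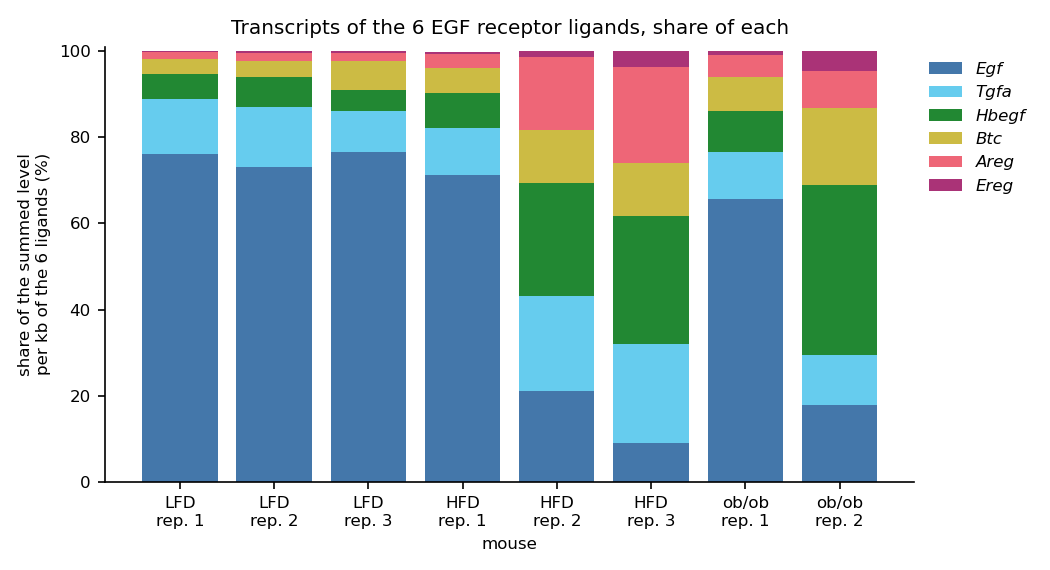
Share of each EGF receptor ligand (y axis, percent of the summed level per kb of the 6 ligands) in each of the 8 mice (x axis; bars are single mice, so there are no error bars). Egf held 73.1% to 76.5% in the LFD mice and 8.92% to 21.1% in HFD replicates 2 and 3, where Hbegf, Areg and Tgfa filled most of the rest.

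Differences between genes within a mouse cancel a shift common to all genes of that mouse. They keep the shrinkage of weak genes such as Areg, so they are not exact ratios. Egf exceeded Areg by 6.96 to 7.29 rlog units in LFD, by 6.09, 1.96 and 0.32 in HFD and by 5.30 and 2.71 in ob/ob. Egfr exceeded Erbb2 by 2.49 to 2.85 units in LFD, by 1.82 to 2.20 in HFD and by 2.72 and 2.92 in ob/ob. The HFD mice therefore had the smallest distance between Egfr and Erbb2, with no overlap with either of the other groups, as for Erbb2 alone. No share over other gene pairs is given. Erbb3 exceeded Erbb2 by 2.01 to 2.22 units in LFD, by 1.36, 1.38 and 1.80 in HFD and by 2.03 and 1.23 in ob/ob. For that pair HFD and ob/ob overlapped. Tgfa exceeded Hbegf by 1.02 to 1.25 units in LFD, but was below it by 0.20 and 0.31 in HFD replicates 2 and 3 and by 1.70 in ob/ob replicate 2.

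Several cell types differed in their marker genes along with these transcripts. All 18 acinar markers were lower in the mean of the obese groups, and their summed linear level (2 to the power of the rlog value) was 14100000 to 18800000 in LFD, 1020000 to 17400000 in HFD and 1300000 to 10700000 in ob/ob. Of the fibroblast markers 9 of 10 were higher (sums of 12300 to 14900 in LFD, 19600 to 44300 in HFD and 27800 to 58300 in ob/ob), and of the macrophage markers 8 of 8 (10200 to 14000, 17200 to 33600 and 26000 to 48100). The 6 neutrophil markers were all higher, with sums of 246 to 407 in LFD, 720 to 2380 in HFD and 593 to 754 in ob/ob. Ductal markers, 7 of 10 higher, had sums of 11800 to 14900 in LFD and 13300 to 32400 in HFD, but 8530 to 13900 in ob/ob. Islet markers, 6 of 9 higher, summed to 8820 to 17500, 6510 to 11400 and 17800 to 37900. Endothelial (4 of 6 higher), adipocyte (4 of 5) and Schwann cell markers (2 of 3) had overlapping sums in all groups, and no marker was at 0. Which of these cells carried the ligands cannot be told from bulk tissue, and the part of the fibroblast, macrophage, neutrophil, ductal and islet markers in the differences was not tested.

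With the acinar mean of each mouse as a covariate, most differences from LFD became smaller, but not all. For HFD minus LFD, Egf went from -1.83 to -0.29, Ereg from 1.91 to 0.73, Hbegf from 1.52 to 0.63, Nrg1 from 1.82 to 0.93, Btc from 0.94 to 0.51 and Areg from 2.46 to 1.60. Tgfa went from 0.40 to 0.19 and Egfr from 0.34 to 0.13, while Erbb2 was at 0.92 against 0.97 and Erbb3 at 0.40 in both fits. For ob/ob minus LFD, Egf went from -1.81 to -0.16, Ereg from 1.79 to 0.53, Nrg1 from 1.98 to 1.03, Areg from 1.26 to 0.34 and Hbegf from 1.07 to 0.11. There Btc went from 0.74 to 0.28, and Egfr changed sign from 0.10 to -0.13. Tgfa moved further from 0, from -0.77 to -0.99, as did Erbb2, from -0.08 to -0.14, and Erbb3 was at -0.54 in both fits. The acinar means of HFD (15.85) and ob/ob (15.70) were nearly equal, so the covariate could hardly move a difference between these groups. No difference of the 10 genes passed limma in this fit, where the adjusted p-values for HFD minus LFD lay between 0.336 and 0.87. The acinar mean differed between the groups itself, so the covariate also takes up part of any group difference.

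**Figure D4:**
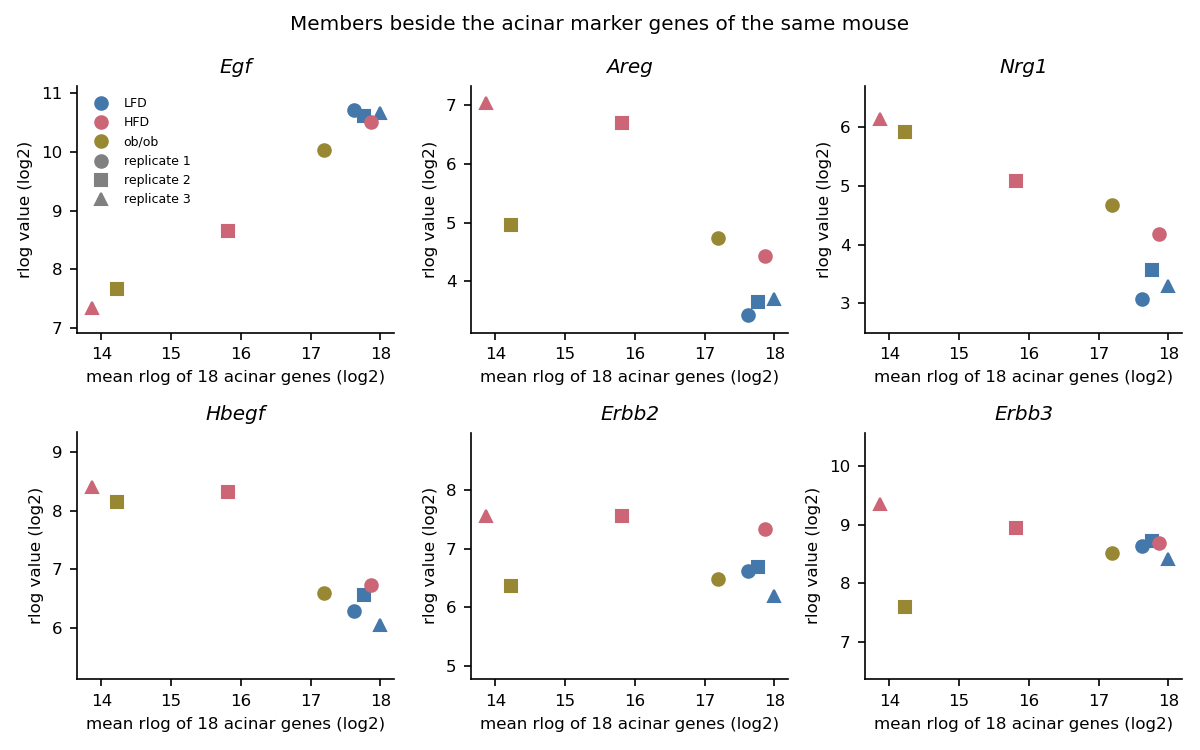
Rlog value (y axis, log2) of 6 of the genes against the mean rlog value of 18 acinar marker genes (x axis, log2) of the same mouse; colours give the group and shapes the replicate. Egf was lowest in the mice with the lowest acinar mean, Nrg1 was highest there, Areg was at 7.03 in HFD replicate 3 but at 4.96 in ob/ob replicate 2, and Erbb2 was between 7.33 and 7.56 in the HFD mice across the whole range of acinar means.

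The genes listed around the release and handling of the ligands were mostly higher in obese mice. Of 13 genes for shedding and trafficking, 12 were higher and 1 lower in the mean of the obese groups against LFD, with a median difference of 0.70 beside 0.041 over all genes, and 6 passed an unadjusted p of 0.05, all higher (14.5% of all genes were). Adam19, a membrane protease that can cut neuregulin, had the highest difference, with 6.20, 6.67 and 5.68 in LFD, 7.23, 7.68 and 8.59 in HFD, and 7.03 and 8.01 in ob/ob. Its 5 values in obese mice exceeded the 3 in LFD, by 1.49 on average (SE 0.38; limma adjusted p = 0.107). The lowest was Rhbdf1, an inactive rhomboid that guides the sheddase ADAM17 to the surface, at -0.23 (SE 0.18; limma adjusted p = 0.437). Adam17 itself, the main sheddase of Areg, Ereg, Hbegf and Tgfa, was at 8.45 to 8.75 in LFD, 9.03 to 9.55 in HFD and 9.30 and 9.89 in ob/ob, a difference of 0.84 (limma adjusted p = 0.106). Nkd2, which escorts TGFA to the cell surface, was at 5.99 to 6.24 in LFD, 7.13 to 8.04 in HFD and 6.97 and 7.68 in ob/ob, a difference of 1.40 (limma adjusted p = 0.0853). For both, all obese mice lay above the lean ones, and both were picked out after their values were seen. Adam12, at 1.36 (limma adjusted p = 0.107), was wholly higher too. In all, 4 of the 13 genes were wholly higher in the obese mice, beside 9.4% of all genes. The 12 higher genes also included Adam10, nearly level with LFD at 0.03 (limma adjusted p = 0.902). Timp3, which codes for a TIMP inhibitor and not for a releasing protein, was among them at 0.70 (limma adjusted p = 0.228).

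Genes that carry the signal onward and those that damp it were less one-sided. Of 21 adaptors and signal carriers next to the receptors, 11 were higher and 10 lower with a median of 0.029, and 4 passed an unadjusted p of 0.05 higher and 1 lower, beside 14.5% and 10.9% of all genes. The adaptor Shc2 was highest at 0.72 (SE 0.30) and the RAS exchange factor Sos2 lowest at -0.58 (SE 0.16), with limma adjusted p-values of 0.178 and 0.11. Sos2 was at 8.67 to 8.87 in LFD, 8.06 to 8.43 in HFD and 8.03 and 8.24 in ob/ob, so all obese mice were below all LFD mice. That held for 1 of the 21 genes, beside 9.05% of all genes. Grb7, an adaptor gene close to Erbb2 on chromosome 11, was picked out after its values were seen. Its differences had the same signs as those of Erbb2. They were 0.62 for HFD minus LFD, -0.50 for ob/ob minus LFD and -1.12 for ob/ob minus HFD (limma adjusted p = 1.0). In ob/ob, replicate 1 (6.85) lay within the LFD values of Grb7 (6.18 to 6.91), and the lower mean came from replicate 2 (5.40). Of 22 inhibitors and down-regulators of the receptors, 14 were higher and 8 lower with a median of 0.32, and 5 passed the unadjusted p higher and 1 lower, beside the same 14.5% and 10.9% of all genes. The highest was Sh3kbp1, a scaffold of receptor uptake, at 1.18 (SE 0.41) and the lowest Epn1, an endocytosis protein, at -0.47 (SE 0.19), with limma adjusted p-values of 0.141 and 0.177. None of the 56 genes of the 3 lists passed the adjusted p.

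**Figure D5:**
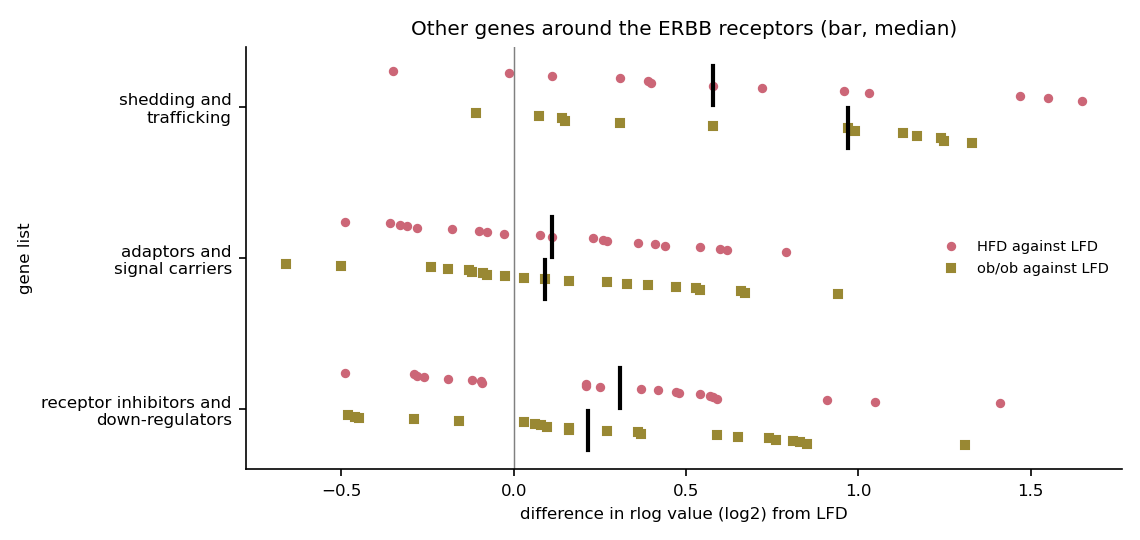
Difference in rlog value from LFD (x axis, log2) of each gene in 3 lists (y axis) for HFD (circles) and ob/ob (squares); black bars are list medians. The shedding and trafficking genes had medians of 0.58 and 0.97, the adaptors 0.11 and 0.091, and the inhibitors 0.31 and 0.22.

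The remaining family genes with a value were Nrg4 and Erbb4, both weak and variable within LFD. Nrg4 was at 4.45, 3.91 and 2.96 in LFD, 4.03, 3.75 and 4.17 in HFD, and 3.34 and 3.03 in ob/ob. Erbb4, the receptor that binds neuregulins and Hbegf, was at 5.54, 4.70 and 3.52 in LFD, 4.67, 4.84 and 2.69 in HFD, and 4.13 and 2.88 in ob/ob. Both obese groups overlapped with LFD for both genes, while for Nrg4 both ob/ob mice were below all HFD mice. The differences from LFD were 0.21 and -0.59 for Nrg4 and -0.52 and -1.08 for Erbb4 in HFD and ob/ob. Epgn, Nrg2 and Nrg3 were not analysed here.

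For the ligand with the highest difference between the mean of the obese groups and LFD (Nrg1 with 1.90, next to Areg with 1.86), the one with the lowest (Egf) and the receptor Egfr, the genes with the most similar pattern were looked up by Pearson's r over the 8 mice, as a description without a test. Over the 5 obese mice taken singly the order of these ligands turns, with 1.98 for Areg and 1.88 for Nrg1. Nrg1 was followed most closely by Foxm1 (r = 0.996), Ccnb2 (0.993) and Kif20b (0.992). Egf was followed by Klb (0.999), Aass (0.998) and Cbs (0.998), and Egfr by Hunk and Adamdec1 (0.988 each). The 8 mice share the 3 groups and the spread in acinar markers, and the genes named come from the top of 15047.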

How the data were processed

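The deposited values were used as they are. As far as the methods and labels say, the authors extracted total RNA from pancreas, sequenced paired-end libraries, quantified transcripts of Gencode M18 (GRCm38.p6) with Salmon 0.11.3, summarized them per gene with tximport and applied the rlog function of DESeq2 1.22.2. The authors deposited these rlog values, on a log2 scale, for 15047 gene symbols. The filter behind these genes, and whether rlog used the groups, are not given in the sources used here. No counts were used, so the depth of each mouse is unknown and no counting error or test for counts is given; the authors' own test on counts could not be run.

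Mice were grouped by their labels. Replicates are separately labelled samples, taken as separate mice, and p-values measure the spread between them. Differences came from limma 3.58.1 in R 4.3.3, with 1 mean per group, all 8 mice, a variance trend on the mean, and Benjamini-Hochberg adjustment over all genes. In obese against LFD, obese is the mean of the HFD and ob/ob group means. Exact permutation tests used NumPy 2.4.6 on all 56 choices of 3 mice, and comparisons of 3 mice against 3 or of 3 against 2 cannot go below 0.1 and 0.2. Levels per kb used transcript lengths of Gencode M21 on the same assembly. Salmon shares reads between similar transcripts, so genes with overlapping transcripts carry an error that is not shown.

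Named were the 10 genes, other family genes with a value, the highest and lowest gene of each pathway list and the 3 genes most like Nrg1, Egf and Egfr. An item that this rule would name is not reported here. The members and lists were chosen with earlier results of these data known. On simulated data for HFD against LFD with 15047 genes, limma recovered 0%, 24%, 92% and 100% of genes changed by 2, 4, 8 and 16 residual SDs.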

Additional observations from a re-analysis of the deposited data

Results flagged for a closer look

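Erbb2 and Erbb3 were set apart because every HFD mouse lay on one side of the LFD mean and every ob/ob mouse on the other. Tgfa, with a larger ob/ob minus HFD difference of -1.17, was not, since HFD replicate 1 (7.20) was below the LFD mean of 7.40. The share of all genes that meet this rule is not given here. For Erbb2, all 3 HFD mice (7.33 to 7.56) were above the LFD mean of 6.51 and both ob/ob mice (6.48 and 6.37) were below it, and ob/ob minus HFD was -1.05 (SE 0.24; limma adjusted p = 0.883). For Erbb3, the HFD mice (8.68 to 9.35) were above the LFD mean of 8.60 and the ob/ob mice (8.52 and 7.59) below it, and ob/ob minus HFD was -0.94 (SE 0.30; limma adjusted p = 1.0). Replicate 1 of both obese groups (8.68 and 8.52) lay within the LFD values of Erbb3, 8.42 to 8.73. The ductal markers were higher in the mean of HFD (9.62) than in LFD (8.98) and ob/ob (8.81), but single mice overlapped. HFD replicate 1 (9.12) lay within the LFD values of 8.85 to 9.18, and ob/ob replicate 1 (9.23) lay above them. The part of the ductal markers in the differences of Erbb2 and Erbb3 was not tested.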

How the results depend on the processing

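Values rest on 2 or 3 mice a group, depth is unknown, and rlog values shrink differences of weak genes such as Ereg, Nrg1 and Areg. Of the differences of single members under an alternative, 587 kept direction and side of the threshold, 13 newly passed it (all without HFD replicate 1) and 18 changed sign. Counts of genes past the adjusted p, 0 in all 4 comparisons, became 1 (HFD against LFD) and 38 (ob/ob against LFD) with only the compared groups in the fit. With the acinar covariate the count was 1 for ob/ob against LFD, for ob/ob against HFD and for obese against LFD. With HFD replicate 3 and ob/ob replicate 2 both left out it was 1 for HFD against LFD, ob/ob against HFD and obese against LFD. Leaving out 1 mouse gave 0 to 2812 genes for HFD against LFD, 0 to 89 for ob/ob against LFD, 0 to 1 for ob/ob against HFD and 0 to 3326 for obese against LFD; a lone ob/ob mouse is there assumed to vary like the other groups. The cause of these shifts was not tested. A fit without the variance trend, the filter on low values, median centring and quantile normalization left all 4 counts at 0.

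Deviations of mice with the same replicate number correlated between -0.281 and 0.592, so the numbers were not taken to pair the mice. With the number as a block the counts stayed at 0, and ob/ob minus HFD turned to 0.28 for Ereg, 0.019 for Btc and -0.35 for Egf. Other changes of sign were in differences that had not passed. Leaving out 1 mouse at a time, ob/ob minus HFD ran from -1.17 to 1.20 for Egf, -1.12 to 0.89 for Ereg, -1.23 to 0.33 for Hbegf, -0.54 to 0.15 for Btc and -0.46 to 0.78 for Nrg1, ob/ob minus LFD from -0.23 to 0.011 for Erbb2, and obese minus LFD from -0.30 to 0.16 for Erbb3. With the acinar covariate, Egfr was at -0.13 for ob/ob minus LFD and at -0.0002 for obese minus LFD. Erbb3 was at 0.07 for obese minus LFD without HFD replicate 3 and ob/ob replicate 2. The difference between 5 obese and 3 LFD mice ran from -0.26 to 0.15 for Tgfa and from -0.16 to 0.28 for Erbb3 with 1 mouse left out, and was -0.063 for Erbb3 after median centring. With any mouse left out, the exact permutation test can no longer reach p under 0.05.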

Other observations

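Around the ligand genes of chromosome 5, 8 further genes between Rassf6 (start 90603076) and Parm1 (end 91626894) had a value, and they were looked at after the values were seen. Mthfd2l, on the side of Ereg, was higher by 0.79 in the mean of the obese groups against LFD (limma adjusted p = 0.13), and Parm1, on the side of Btc, was at -0.68 (limma adjusted p = 0.271). The chemokine genes of the region were uneven in the size of their differences. Cxcl5 differed by 1.62 in HFD and -0.17 in ob/ob from LFD, Pf4 by 0.26 and 1.37, and Cxcl2 by 1.50 and 1.31. Ppbp differed by 1.15 and 0.63, and Cxcl1 by 0.76 and 0.26. In the mean of the obese groups against LFD, only Parm1 and Rassf6 (-0.087) of these neighbours were below 0, and no test of the region was made.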
